A study of Mus musculus with 4 samples.

Results

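The 9 genes described here, Pdgfra, Cspg4, Ptprz1, Cspg5, C1ql1, Matn4, Cacng4, Lhfpl3 and Fabp7, are markers of oligodendrocyte precursor cells and were taken as a named list, matched by symbol, from the 55401 genes measured in each library of mouse optic nerve RNA. The study compared 2 libraries of genotype Dor WT with 2 of genotype Dor cKO, a conditional knockout. The deleted gene appears in the labels under the name Dor alone, a synonym of Trp53inp2, and no treatment is given. The Cre driver, floxed allele, strain, sex, age and number of animals per library are not stated in the sources used here, and nothing says that the libraries came from separate animals, so p-values measure the spread between these libraries. A tag that may be an age stands in the table names of the Dor WT libraries and not in those of Dor cKO. All 9 genes had expected counts of 530 to 7992 in every library and all passed the filter on low counts, which left 16751 genes for testing.

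Oligodendrocyte precursors are the dividing cells from which myelinating oligodendrocytes of the central nervous system arise. They depend on platelet-derived growth factor A, which acts through the receptor encoded by Pdgfra, and they carry the NG2 proteoglycan encoded by Cspg4. As they differentiate they switch these genes off, pass through a short newly formed stage and then turn on the myelin genes. Most of the 9 genes are not limited to precursors: fibroblasts express Pdgfra, mural cells of vessels express Cspg4, and astrocytes or their precursors express Ptprz1, Cspg5 and Fabp7. In whole tissue, fewer cells of a type and less RNA per cell cannot be told apart.

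Total expected counts were 17263830 to 21595832 per library, so a floor of 3 counts lay at 0.139 to 0.174 CPM (counts scaled to a library of fixed size), far below every value of the 9 genes. The targeted gene Trp53inp2 had 138 and 134 CPM in Dor WT against 105 and 107 CPM in Dor cKO. This is the direction of the labels but a weak check of them. Of all genes tested, 30.5% also lay lower in Dor cKO without overlap. Counts over a whole gene in whole tissue need not show a deletion limited to some exons or some cells. The libraries also differed in ways that follow the groups: the mean fragment length was 259.6 and 260.0 bases in Dor WT, against 245.5 and 245.4 bases in Dor cKO, and pituitary markers summed to 35.1 to 38.6 CPM in Dor WT and 2.55 to 3.29 CPM in Dor cKO.

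Most precursor markers had a lower mean in Dor cKO, and their changes split by size. Lhfpl3, Matn4, Cacng4 and Fabp7 fell by 18.6% to 34.0%, whereas Pdgfra and Ptprz1 fell by 4.67% and 4.44%. Cspg4, C1ql1 and Cspg5 did not pass the test, and Cspg5 was the single gene of the 9 with a higher mean in Dor cKO, at 10.7% higher. In all, 6 of the 9 genes were lower, 0 were higher and 3 did not pass at an adjusted p under 0.05 in edgeR's quasi-likelihood test. Beside this count, 13.4% of all genes tested were called lower, 14.3% were called higher and 27.7% were called in either direction. The median log2 fold change of the 9 genes was -0.14, beside -0.0036 over all genes tested. DESeq2 called 4 of the 9 genes lower and 1, Cspg5, higher, and at an unadjusted p under 0.05 edgeR also had 1 higher. With the coefficient of variation set at 0.1, 1 gene was lower and 0 were higher.

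**Figure D1:**
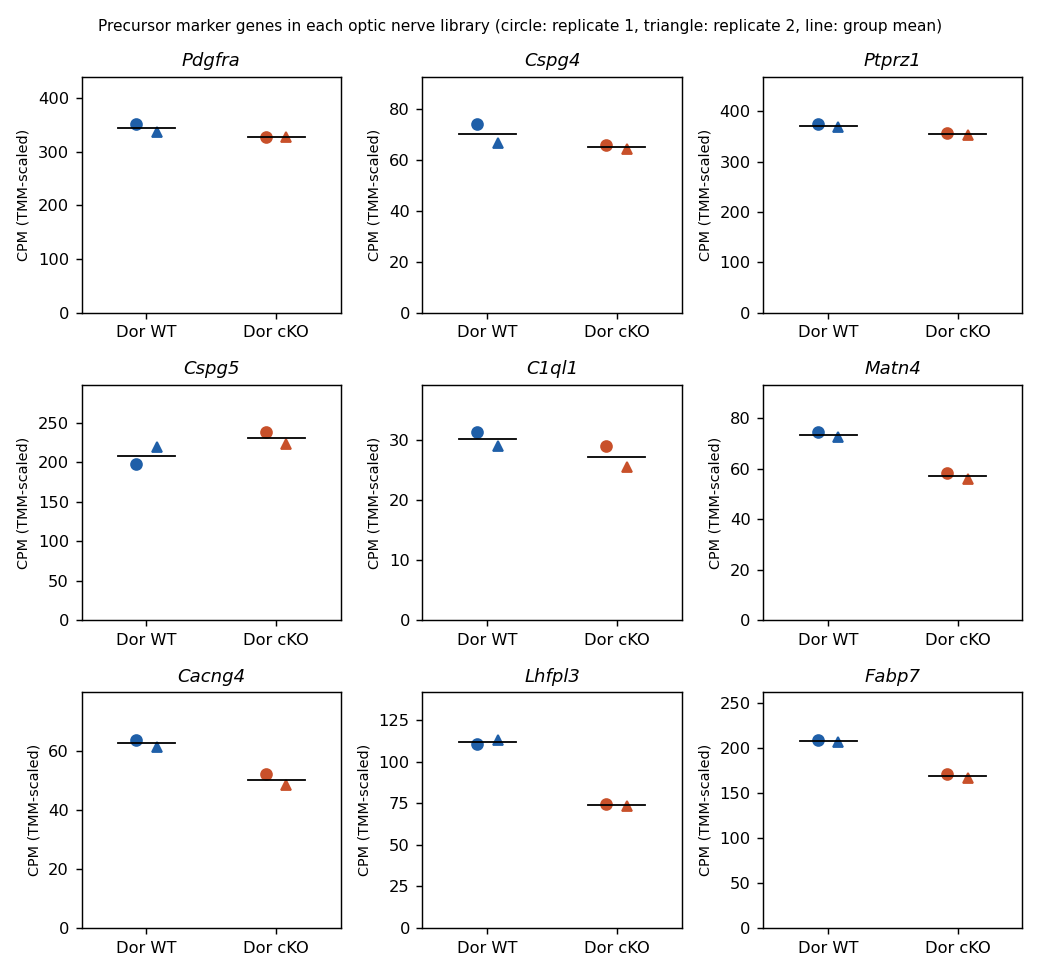
Each panel plots 1 gene's level in CPM (vertical axis, from 0) in the 2 Dor WT and 2 Dor cKO libraries; circles are replicate 1, triangles replicate 2 and lines the group means. Lhfpl3, Matn4, Cacng4 and Fabp7 show a clear step between groups, and Pdgfra and Ptprz1 a step of 4.67% and 4.44%.

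Among the surface receptors and proteoglycans, changes were small. Pdgfra (ENSMUSG00000029231.15; GRCm38 chromosome 5, 75152292 to 75198215), the receptor tyrosine kinase that holds precursors in the cycle, had 351 and 337 CPM in the Dor WT libraries, against 328 and 327 CPM in the Dor cKO libraries. The groups did not overlap, but the Dor WT libraries were farther apart than Dor WT replicate 2 was from either Dor cKO library. Its log2 fold change (Dor cKO minus Dor WT) was -0.07 (standard error, SE, 0.026, edgeR adjusted p = 0.0441). This call was lost in 11 of 16 alternative settings, among them DESeq2 and the removal of any single library other than Dor WT replicate 2, and with limma on log2(TPM + 1) the log2 fold change was -0.14 (adjusted p = 0.231).

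Ptprz1 (ENSMUSG00000068748.7; chromosome 6, 22875502 to 23052916) encodes a receptor tyrosine phosphatase whose extracellular part is also released as the matrix proteoglycan phosphacan. It had 374 and 368 CPM in the Dor WT libraries, against 357 and 352 CPM in the Dor cKO libraries, without overlap. Its log2 fold change was -0.07 (SE 0.024, adjusted p = 0.0416). Taking out a smooth trend with length and GC content turned its direction, to a log2 fold change of 0.09 (adjusted p = 0.00953), and 9 other settings ended the call.

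Cspg4 (ENSMUSG00000032911.6; chromosome 9, 56865033 to 56899870), which encodes NG2, had 74.1 and 66.7 CPM in the Dor WT libraries, against 65.8 and 64.4 CPM in the Dor cKO libraries. Dor WT replicate 1 was the high library, and the other 3 lay close together. The log2 fold change was -0.11 (95% interval -0.23 to 0.01, edgeR adjusted p = 0.171). Without Dor WT replicate 1 it was -0.03, and without Dor WT replicate 2 it was -0.19 and passed (adjusted p = 0.0227), so the 2 Dor WT libraries set this value.

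Cspg5 (ENSMUSG00000032482.9; chromosome 9, 110243783 to 110262576) encodes neuroglycan C, a transmembrane chondroitin sulfate proteoglycan. It had 197 and 219 CPM in the Dor WT libraries, against 238 and 223 CPM in the Dor cKO libraries, so that Dor WT replicate 2 and Dor cKO replicate 2 were nearly level. The log2 fold change was 0.15 (95% interval 0.03 to 0.26, unadjusted for the number of genes) with an adjusted p of 0.0656. It passed as higher in 6 of 16 alternative settings, among them DESeq2 (adjusted p = 0.0322), the fit without the robust option (adjusted p = 0.00838) and the fit without Dor WT replicate 2 (0.23, adjusted p = 1.89e-06). Over all 16 settings it ranged from 0.08 to 0.23.

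Of the secreted proteins, Matn4 fell and C1ql1 did not pass. Matn4 (ENSMUSG00000016995.17; chromosome 2, 164389393 to 164405160) encodes matrilin-4, an adaptor protein of the extracellular matrix. It had 74.6 and 72.4 CPM in the Dor WT libraries, against 58.4 and 55.8 CPM in the Dor cKO libraries, a gap several times the spread within either group. On the log2 scale its level dropped by 0.36 (SE 0.06, edgeR adjusted p = 6.03e-06), or 22.2%. C1ql1 (ENSMUSG00000045532.5; chromosome 11, 102939264 to 102946688) encodes a secreted protein related to complement C1q that binds the adhesion receptor encoded by Adgrb3. It had 31.3 and 29.0 CPM in the Dor WT libraries, against 28.9 and 25.5 CPM in the Dor cKO libraries, so the groups nearly touched. Its log2 fold change was -0.14 (95% interval -0.32 to 0.03, adjusted p = 0.233), and it passed in none of the 16 alternative settings, whose adjusted p ran from 0.115 to 0.79.

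Both membrane proteins with 4 spans fell. Lhfpl3 (ENSMUSG00000106379.1; chromosome 5, 22746059 to 23275597) encodes a member of the LHFP-like tetraspan family. It had 111 and 113 CPM in the Dor WT libraries, against 74.6 and 73.4 CPM in the Dor cKO libraries, with libraries of a group close together. It fell by 0.60 (SE 0.05, adjusted p = 1.13e-11), or 34.0%, the largest change of the 9 genes in CPM, and passed in all 16 alternative settings, at log2 fold changes of -0.62 to -0.47. Cacng4 (ENSMUSG00000020723.3; chromosome 11, 107732357 to 107794557) encodes an auxiliary subunit of AMPA-type glutamate receptors. It had 64.0 and 61.4 CPM in the Dor WT libraries, against 52.4 and 48.4 CPM in the Dor cKO libraries, without overlap. It fell by 0.31 (SE 0.06, adjusted p = 1.70e-04), or 19.6%.

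Fabp7 (ENSMUSG00000019874.11; chromosome 10, 57784881 to 57788450) encodes a fatty acid binding protein of radial glia, astrocytes and precursors. It had 209 and 207 CPM in the Dor WT libraries, against 171 and 167 CPM in the Dor cKO libraries. It fell by 0.30 (SE 0.03, adjusted p = 1.11e-08), or 18.6%, and the step between groups was many times the spread within them. The calls of Matn4, Cacng4 and Fabp7 ended with the coefficient of variation set at 0.1 (adjusted p = 0.112, 0.193 and 0.208), and those of Matn4 and Cacng4 also with limma on TPM without a filter (adjusted p = 0.0623 and 0.0884). Lhfpl3 passed both (adjusted p = 0.00166 and 0.02).

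**Figure D2:**
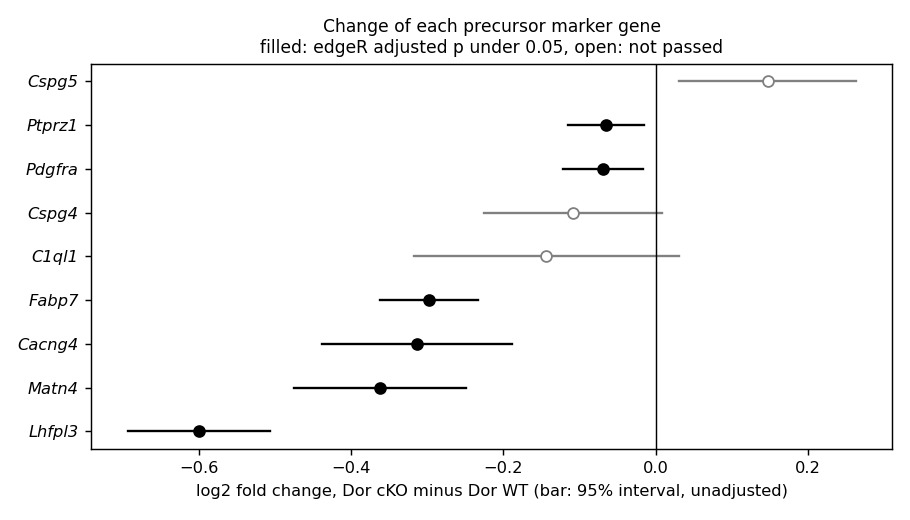
The horizontal axis is the log2 fold change, Dor cKO minus Dor WT, of each of the 9 genes with its 95% interval, unadjusted for the number of genes; filled points passed at an edgeR adjusted p under 0.05. The order runs from Lhfpl3 at -0.60 to Cspg5 at 0.15, with Pdgfra and Ptprz1 both at -0.07.

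Upstream DNA windows are shown for 3 of the genes that fell most and for Pdgfra, which fell little, so that their start regions can be read side by side. RefSeq promoter entries on GRCm38.p6 were matched for 6 of the 9 genes, and each window was ended before the first annotated start. Capitals mark 2 motifs: the E-box CANNTG, which proteins of the Olig type can bind, and the Sox core ACAAT or its reverse complement ATTGT. No 2 of these motifs overlapped in the windows shown. The windows are chr5:22745804-22746053 (plus strand), chr2:164405161-164405410 (minus strand), chr10:57784673-57784880 (plus strand) and chr5:75152001-75152250 (plus strand), in the order printed, 5′ to 3′.
Lhfpl3: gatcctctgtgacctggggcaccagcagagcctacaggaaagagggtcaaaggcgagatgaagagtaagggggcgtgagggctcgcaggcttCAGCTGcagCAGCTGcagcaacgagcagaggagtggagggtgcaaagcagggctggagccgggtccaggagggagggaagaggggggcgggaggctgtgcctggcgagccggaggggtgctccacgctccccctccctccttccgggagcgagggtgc
Matn4: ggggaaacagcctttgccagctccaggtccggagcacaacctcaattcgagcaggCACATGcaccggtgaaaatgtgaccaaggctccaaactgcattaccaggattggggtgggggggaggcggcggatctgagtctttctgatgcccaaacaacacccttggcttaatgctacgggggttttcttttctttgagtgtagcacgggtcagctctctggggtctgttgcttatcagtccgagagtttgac
Fabp7: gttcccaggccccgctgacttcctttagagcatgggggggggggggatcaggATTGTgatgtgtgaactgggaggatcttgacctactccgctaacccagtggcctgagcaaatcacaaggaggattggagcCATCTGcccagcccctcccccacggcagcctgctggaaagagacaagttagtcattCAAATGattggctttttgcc
Pdgfra: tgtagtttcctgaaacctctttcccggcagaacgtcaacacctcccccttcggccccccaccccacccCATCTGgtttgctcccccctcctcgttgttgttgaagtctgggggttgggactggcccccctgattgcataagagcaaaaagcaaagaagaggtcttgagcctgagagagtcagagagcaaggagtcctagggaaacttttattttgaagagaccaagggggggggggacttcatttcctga

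The Lhfpl3 window held 2 E-boxes and 0 Sox cores, the Matn4 window 1 and 0, the Fabp7 window 2 and 1, and the Pdgfra window 1 and 0. Among 32851 RefSeq windows of 250 bases, 66.2% held an E-box and 27.7% a Sox core. For windows of 208 bases, the length used for Fabp7, these shares were 60.3% and 24.4%. The matched windows of Ptprz1 and Cspg4, which are not shown, held 0 E-boxes. The Ptprz1 window held 0 Sox cores and the Cspg4 window, of 179 bases, held 1. For windows of 179 bases the shares were 55.3% and 21.5%. An E-box is thus a common feature of such windows, not every matched marker had one, and no factor's binding was measured.

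Levels between genes are compared per transcript length, in TPM (transcript abundance scaled to a fixed total per library). Fabp7 was highest, with 556 and 550 TPM in the Dor WT libraries, against 440 and 429 TPM in the Dor cKO libraries. Cspg5 followed with 159 and 164 TPM in the Dor WT libraries, against 179 and 181 TPM in the Dor cKO libraries. Pdgfra had 92.6 and 87.4 TPM in the Dor WT libraries, against 84.4 and 79.0 TPM in the Dor cKO libraries, and Ptprz1 had 84.2 and 81.2 TPM against 80.6 and 78.7 TPM. The ranges of these 2 genes did not overlap in Dor WT and did overlap in Dor cKO. Both are surface receptors of precursors.

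Below them, Lhfpl3 had 61.1 and 61.9 TPM in the Dor WT libraries, against 40.6 and 39.8 TPM in the Dor cKO libraries. That brought it within 1.04-fold of Matn4, which had 50.6 and 49.5 TPM in the Dor WT libraries, against 39.2 and 38.2 TPM in the Dor cKO libraries. The order continued with C1ql1 at 29.9 to 37.4 TPM, Cacng4 at 21.4 to 30.7 TPM and Cspg4 at 13.9 to 15.1 TPM over the 4 libraries. The rank order of the 9 group means was the same in both groups. Per transcript length the groups overlapped for Cspg4 and did not overlap for the other 8 genes. In CPM none of the 9 overlapped (8 lower and 1 higher in Dor cKO), beside 30.5% of all tested genes that lay lower without overlap, 30.2% that lay higher and 60.8% in either direction.

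**Figure D3:**
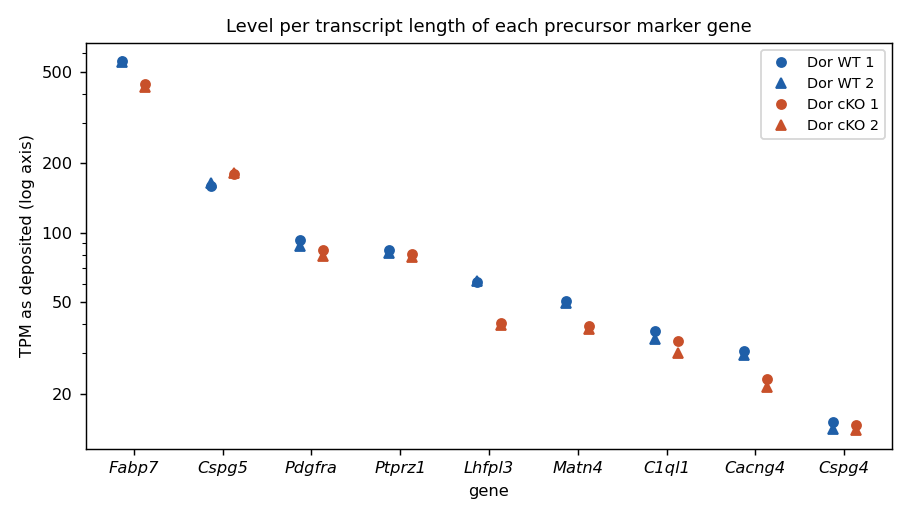
The vertical log axis gives the deposited TPM of each gene in each library (blue Dor WT, orange Dor cKO, circles replicate 1, triangles replicate 2), in the order of the Dor WT means. Fabp7 lies highest at 429 to 556 TPM and Cspg4 lowest at 13.9 to 15.1 TPM.

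Summed over the 9 genes, TPM was 1086 and 1072 in the Dor WT libraries against 936 and 911 in those of Dor cKO, and Fabp7 alone made up 51.1% and 51.3% of the sum in Dor WT, against 47.0% and 47.1% in Dor cKO. Later stages of the lineage were lower by more, so the precursor markers took a larger part relative to them. The summed markers stood at 0.0429 and 0.0427 of the summed myelin genes in Dor WT and at 0.0629 and 0.0614 in Dor cKO. Against newly formed oligodendrocyte genes the ratios were 0.369 and 0.358 in the Dor WT libraries against 0.55 and 0.535 in those of Dor cKO. The ratio to the summed other precursor genes, described below, also rose, from 1.57 and 1.49 in Dor WT to 1.71 and 1.66 in Dor cKO. The larger part was thus not limited to comparisons with later stages. The ratio of Pdgfra to Gpr17, a receptor gene of newly formed cells, went from 0.551 and 0.525 to 1.18 and 1.07 TPM per TPM. Within the 9 genes, the ratio of Lhfpl3 to Pdgfra went from 0.66 and 0.708 to 0.481 and 0.505. None of these ratios overlapped between groups; they are descriptions, since 2 libraries against 2 cannot reach an exact permutation p under 0.05.

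Other precursor genes are described beside these markers. Among 22 such genes, 15 fell, 1 rose and 6 missed the threshold, and the median log2 fold change was -0.44. Among the abundant ones, Bcan, which encodes the matrix proteoglycan brevican, had 379 and 386 CPM in the Dor WT libraries, against 280 and 273 CPM in the Dor cKO libraries and fell by 0.47 (SE 0.025). Vcan, the versican gene, fell by 0.60 (SE 0.035) and Sulf2, a heparan sulfatase gene, by 0.11 (SE 0.024). Neu4, a sialidase gene singled out after its values were seen, had the largest fall, 1.47 (SE 0.11). With limma on log2(TPM + 1), 4 of the 22 genes passed as lower.

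Along the lineage, all 8 transcription factors fell, with a median of -0.82, as did 11 of 12 newly formed genes (median -0.63, 1 higher) and 11 of 12 myelin genes (median -0.81, 1 higher). Olig1, a factor of the whole lineage, had 379 and 380 CPM in the Dor WT libraries, against 149.6 and 151.5 CPM in the Dor cKO libraries, while Myrf and Zeb2 fell by 0.82 and 0.52. Sirt2, Bcas1 and Tns3 of the newly formed stage fell by 0.74, 1.11 and 0.53, and the myelin genes Mbp and Cnp by 0.73 and 0.75. Apod, which encodes an apolipoprotein, rose by 0.64 in the myelin list. Bmp4, a signalling ligand gene of the newly formed list, had a log2 fold change of 0.17 in CPM (SE 0.05, edgeR adjusted p = 0.00444). In TPM, Bmp4 overlapped between the groups, with 115 and 160 TPM in the Dor WT libraries, against 135 and 120 TPM in the Dor cKO libraries. With limma on TPM, at a coefficient of variation of 0.1 or without Dor cKO replicate 1, 0 newly formed genes passed as higher. Among 12 proliferation genes 4 fell, none rose in edgeR (also 0 at an unadjusted p under 0.05 and 0 in DESeq2) and 8 missed the threshold, and the median was -0.13. The division marker Mki67 fell by 0.32 (SE 0.05), Ccnb1 by 0.44 (SE 0.09), Birc5 by 0.44 (SE 0.14) and Top2a by 0.18 (SE 0.05). DESeq2 called 2 of these genes lower, Mki67 and Ccnb1. The Mki67 call ended with limma on log2(TPM + 1) (adjusted p = 0.113), and at a coefficient of variation of 0.1 none of the 4 passed. Without Dor cKO replicate 1, 2 of the 4 passed.

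**Figure D4:**
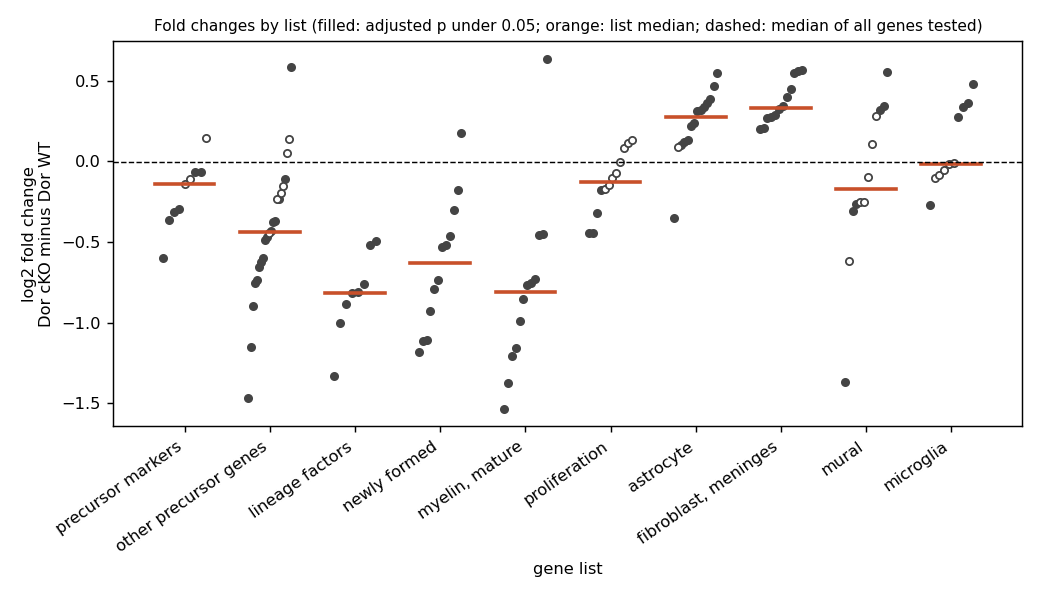
Each point is a tested gene's log2 fold change, Dor cKO minus Dor WT (vertical axis), by list; filled points passed at an edgeR adjusted p under 0.05, orange lines are list medians and the dashed line the median of all genes tested. The 9 markers have a median of -0.14, the lineage factors -0.82 and the fibroblast list 0.33.

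Ligands and partners of these proteins went both ways. Of 28 ligands, binding partners and close relatives, 5 rose, 10 fell and 13 did not pass, with a median of -0.06, and all 15 that passed are named here. The 5 that rose are 17.9% of the list, beside 14.3% of all genes tested. Pdgfa, which encodes the main ligand of the Pdgfra receptor, had 34.3 and 36.7 CPM in the Dor WT libraries, against 42.4 and 45.0 CPM in the Dor cKO libraries and rose by 0.30 (SE 0.07, adjusted p = 0.00165). Pdgfd, a ligand of the related receptor, rose by 0.35 (SE 0.07), and that receptor's gene Pdgfrb by 0.32 (SE 0.04). Pdgfc, another ligand gene of the Pdgfra receptor, did not pass, at 31.0 and 29.3 CPM in the Dor WT libraries, against 30.7 and 28.5 CPM in the Dor cKO libraries. Ptn and Mdk, whose secreted products pleiotrophin and midkine bind the Ptprz1 receptor, rose by 0.12 (SE 0.02) and 0.35 (SE 0.05). The calls of Pdgfa, Pdgfd and Pdgfrb ended with limma on log2(TPM + 1), at adjusted p of 0.166, 0.146 and 0.0733, and none of these 5 genes held its call with the coefficient of variation set at 0.1 (adjusted p = 0.135 to 0.748).

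Partners of the Ptprz1 receptor in the matrix and on cell surfaces went the other way. Tnr, the tenascin-R gene, had 575 and 564 CPM in the Dor WT libraries, against 311 and 323 CPM in the Dor cKO libraries and fell by 0.85 (SE 0.02, adjusted p = 1.31e-21). Cntn1, which encodes the adhesion molecule contactin-1, fell by 0.54 (SE 0.03) and Tnc, the tenascin-C gene, by 0.19 (SE 0.05). The Tnc result no longer passed when Dor WT replicate 2 was left out (adjusted p = 0.0519) and also without Dor cKO replicate 2 (adjusted p = 0.163). Among partners of Cacng4, the AMPA receptor subunit genes Gria2 and Gria3 fell by 0.82 (SE 0.07) and 0.41 (SE 0.09), and the related subunit gene Cacng2 by 0.74 (SE 0.20). The calls of Tnc, Gria3 and Cacng2 ended with limma on log2(TPM + 1), at adjusted p of 0.285, 0.14 and 0.199. Those of Tnc and Gria3 also ended with the coefficient of variation set at 0.1 (adjusted p = 0.526 and 0.0895).

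Adgrb3, the C1ql1 receptor gene, fell by 0.34 (SE 0.11), a call that ended when Dor WT replicate 1 (-0.17, adjusted p = 0.378) was left out, likewise for Dor cKO replicate 2 (adjusted p = 0.183), and in DESeq2 (adjusted p = 0.12). The family relatives Lhfpl4, Fabp5 and Matn3 fell by 0.44 (SE 0.06), 0.45 (SE 0.03) and 0.95 (SE 0.29). With limma on log2(TPM + 1), the calls of Adgrb3, Lhfpl4 and Matn3 ended (adjusted p = 0.314, 0.0697 and 0.136). The Adgrb3 call also ended with the coefficient of variation set at 0.1 (adjusted p = 0.188). Other relatives did not pass and went both ways. Above 0 were Lhfpl2 (0.06), Fabp3 (0.05), Matn2 (0.13), Ptprg (0.05), Cacng3 (0.10), Cacng5 (0.10) and Cacng8 (0.38). Below 0 were Matn1 (-0.80), Cacng7 (-0.09), C1ql2 (-0.24) and C1ql3 (-0.10). Matn3 did not pass in DESeq2 (adjusted p = 0.0653), nor when Dor WT replicate 1 (-0.67, adjusted p = 0.175) was left out, and likewise for Dor cKO replicate 1 (adjusted p = 0.091). Cacng2 did not pass in DESeq2 (adjusted p = 0.0519), nor when Dor WT replicate 2 (-0.47, adjusted p = 0.159) was left out, and likewise for Dor cKO replicate 1 (adjusted p = 0.0544).

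Markers of other cells that can express these genes also moved with the groups. All 12 fibroblast and meningeal markers rose, with a median of 0.33 and sums of 11420 CPM in each Dor WT library and 14770 CPM in each Dor cKO library. Igf2, Col1a2 and Col1a1 rose by 0.45, 0.34 and 0.20. The ratio of Pdgfra to Col1a2 was 0.125 and 0.118 TPM per TPM in Dor WT, against 0.0938 and 0.0859 in Dor cKO. Of 14 astrocyte markers, 12 rose, 1 fell and 1 did not pass, with a median of 0.28 and sums of 19100 to 19170 CPM in Dor WT and 22640 to 22760 CPM in Dor cKO. Gfap and Gja1 rose by 0.10 and 0.38, and Aqp4, the water channel gene, fell by 0.35. The calls of Gfap and Gja1 ended at a coefficient of variation of 0.1 (adjusted p = 0.793 and 0.071). The part of fibroblasts in the Pdgfra value and of astrocytes in the Ptprz1, Cspg5 and Fabp7 values was not tested.

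Mural markers went both ways, with 3 of 12 higher, 3 lower, 6 not passed and a median of -0.17. Their sums were 822 and 852 CPM in the Dor WT libraries, against 1021 and 1008 CPM in the Dor cKO libraries, and Vtn, Atp13a5 and Pdgfrb rose by 0.34, 0.55 and 0.32 while Rgs5, Notch3 and Myh11 fell by 0.31, 0.26 and 1.37. The sum and the median of the mural list thus differ in direction. At a coefficient of variation of 0.1, the calls of Vtn and Pdgfrb ended (adjusted p = 0.126 and 0.176). The ratio of Cspg4 to Pdgfrb was 0.591 and 0.536 TPM per TPM in Dor WT, against 0.463 and 0.426 in Dor cKO. Of 10 microglia markers, 4 rose, 1 fell and 5 did not pass (median -0.01), with Csf1r, C1qb and C1qa up by 0.34, 0.27 and 0.36 and P2ry12 down by 0.27. Microglia marker sums were 663 and 669 CPM in the Dor WT libraries, against 751 and 760 CPM in the Dor cKO libraries. Csf1r, C1qb and C1qa did not pass at a coefficient of variation of 0.1 (adjusted p = 0.134, 0.275 and 0.103). C1qb also did not pass with limma on log2(TPM + 1) (adjusted p = 0.0551).

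Schwann cell markers were low, at sums of 42.5 to 47.0 CPM in the 4 libraries, and 5 of 8 could be tested. None of the 5 passed in edgeR (0 also at an unadjusted p under 0.05, and 0 in DESeq2), at a median of 0.11, and Cdh19, Drp2 and Prx, the most abundant, had log2 fold changes of 0.11, -0.07 and 0.11. The 6 pituitary markers that could be tested were called lower in Dor cKO. Cga, Gh, Pitx1 and Lhx3 had at most 3 counts in each Dor cKO library. They passed the filter on low counts through the Dor WT libraries alone, so for them a fall was the only direction open. The hormone genes Cga, Pomc and Gh were at 15.8 and 17.3, 7.25 and 5.25, and 6.97 and 5.66 CPM in Dor WT, and Cga had 0 counts in both Dor cKO libraries, where 5 of the 10 pituitary markers were at 0. Of 8 tanycyte and ventral hypothalamus markers, 5 fell in edgeR and 2 in DESeq2 (median -0.77). Among those 5, Rax and Slc17a8 also needed the Dor WT libraries to pass the filter. Col23a1, Dio2 and Nkx2-1 were lower by 0.14, 1.15 and 1.94 on the log2 scale. Tanycyte list sums were 281 and 288 CPM in the Dor WT libraries, against 223 and 218 CPM in the Dor cKO libraries. The part of pituitary or hypothalamic tissue in the falls of the 9 markers was not tested.

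Several of the 9 markers, namely Pdgfra, Cspg5, Matn4, Cacng4 and Lhfpl3, overlap other annotated genes. The counts given to such a neighbouring or antisense gene came to at most 8.8% of the marker's own counts, for Rbpjl beside Matn4. For A930003O13Rik beside Lhfpl3 they came to at most 6.25%. Rbpjl had 81 and 91 reads in the Dor WT libraries and 108 and 91 in those of Dor cKO, and the library kit keeps strand, but whether counting used it was not given. The RSEM posterior standard deviation of the count was 0 in every library for 7 of the 9 genes, 8.16 to 9.37 reads for Lhfpl3 and 0.48 to 1.7 reads for Pdgfra.

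**Figure D5:**
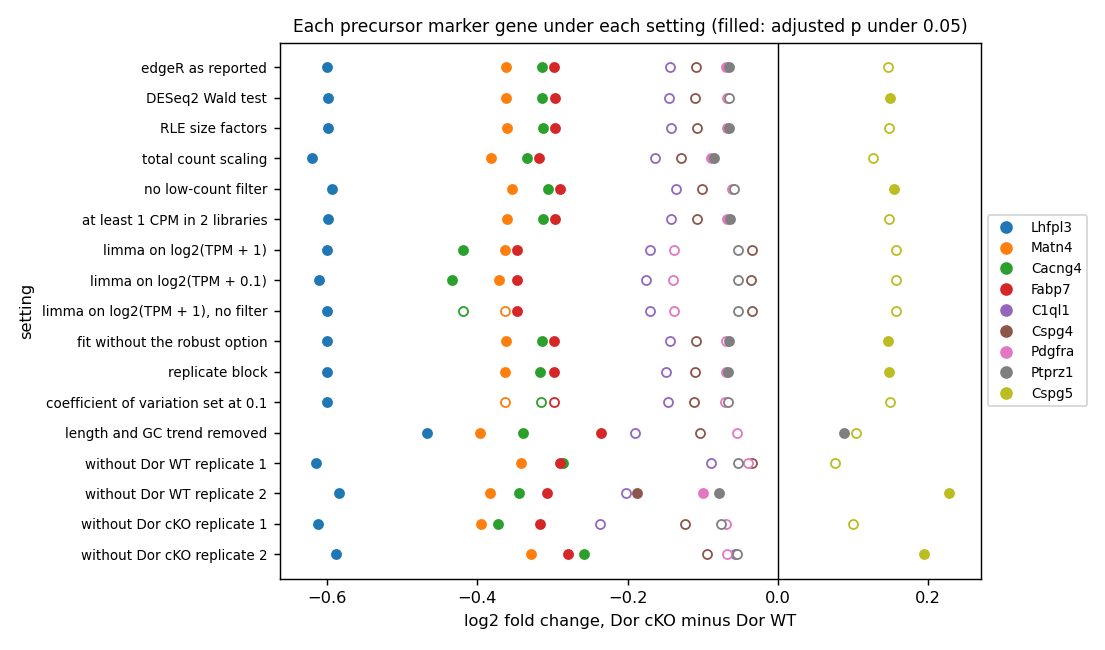
The horizontal axis gives the log2 fold change, Dor cKO minus Dor WT, of each of the 9 genes (colours) under each setting (vertical axis); filled points have an adjusted p under 0.05. Lhfpl3 is filled in every setting, and Ptprz1 lies right of 0 with the length and GC trend removed, at 0.09.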

How the data were processed

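Expression was measured by stranded mRNA sequencing of 4 optic nerve libraries, 2 per genotype. RSEM 1.3.1, Trimmomatic 0.36, STAR 2.7.9a and, as the build, GRCm38 are listed with no role in the submitters' processing notes. Per the file headers, the authors deposited RSEM gene tables with expected counts, which share reads between genes they match equally well, and TPM values, scaled per library. The annotation release and strand setting are not stated in the sources used. Symbols and coordinates came from GENCODE M21 (GRCm38), matched for 55141 of 55401 identifiers; genes without a symbol held 0.00297% of counts.

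Deposited expected counts were rounded. Genes passed filterByExpr of edgeR 4.0.16 (minimum count 10, total 15), were scaled by TMM and were tested with the robust quasi-likelihood test, group as the only term, with Benjamini-Hochberg adjustment over all 16751 genes and a threshold of 0.05. The SE is the fold change divided by the square root of F, and CPM uses TMM-scaled library sizes. The common biological coefficient of variation was 0.0348. The steps were tested on simulated data.

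The 9 genes, the other lists, the tests and their alternatives were chosen with earlier results of these data known. Named genes were all 9 markers, the targeted gene, and per list the 3 most abundant called genes (the 3 most abundant tested where fewer were called). Others were named after their values were seen, and some genes that the rule or a nearest-gene ranking picked are not reported here. Alternatives were DESeq2 1.42.0, RLE and total count scaling, other filters, limma 3.58.1 on log2(TPM + 1) and log2(TPM + 0.1), a non-robust fit, a replicate block, a fixed coefficient of variation of 0.1, removal of a trend on length and GC content, and leaving out each library. RSEM's mean transcript length was read per library as a description.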

Additional observations from a re-analysis of the deposited data

How the results depend on the processing

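Of the 9 markers, Lhfpl3 kept its call in all 16 alternatives, Fabp7 in 15, and Matn4 and Cacng4 in 14 each. Pdgfra kept its call in 5 and Ptprz1 in 6. The causes of the losses were not tested. Ptprz1 reversed with the length and GC trend removed, to 0.088. Markers called lower numbered 1 with the coefficient of variation set at 0.1, 2 with limma on TPM without a filter, and 4 to 7 with 1 library left out. Markers called higher numbered 1 with DESeq2, without a low-count filter, without the robust option, with the replicate block and after removal of the trend on length and GC, and 0 to 1 with 1 library left out. In the length and GC setting that gene was Ptprz1.

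Over all genes, calls higher and lower numbered 1549 and 1392 with DESeq2, 666 and 722 with limma on log2(TPM + 1), 672 and 734 on log2(TPM + 0.1), 320 and 347 without a filter on TPM, and 703 and 891 at a coefficient of variation of 0.1, against 2399 and 2248. Without 1 library they were 1782 to 2184 higher and 1670 to 2073 lower. Other precursor genes called lower numbered 4, 4, 3 and 9 with those limma and fixed-variation settings in the same order, and 13 to 16 without 1 library; 0 were higher with limma on TPM without a filter and 1 with any library left out. The labels do not say whether replicate numbers pair libraries. Deviations of same-numbered libraries correlated at -0.0177 across genes. With 2 libraries per genotype this is a single value, which cannot settle whether they were paired. The block called Cspg5 higher and changed no call of the other 8 markers. Genes that had not passed also changed sign: Cdh19 (-0.0258 to 0.2302 without 1 library, negative without Dor cKO replicate 1), Prx (-0.0179 to 0.2331, negative without Dor WT replicate 2), and Drp2 (0.005, 0.0059 and 0.005 in the limma settings).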

Other observations

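The transcript makeup of Cacng4 differed between the libraries in the RSEM tables. Its mean transcript length was 3276 and 3282 bases in Dor WT and 3500 bases in both Dor cKO libraries. GENCODE lists a coding transcript of 3500 bases and a processed transcript of 422 bases. The lengths place 7.29% and 7.08% of Cacng4 transcripts on the short form in Dor WT and 0% in Dor cKO. That corresponds to an estimated 4.39 and 5.09 reads of 1111 and 1333. For the coding transcript alone, the level was 28.5 and 27.4 TPM in Dor WT and 23.2 and 21.4 TPM in Dor cKO, still without overlap. Pdgfra had mean transcript lengths of 5754 and 5852 bases in Dor WT and 5838 and 6215 bases in Dor cKO, where Dor cKO replicate 2 stood apart from the other 3 libraries.

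Among 168 candidates, the tested genes of all the lists other than the gene itself, those whose log2 CPM over the 4 libraries, centred on each gene's mean, lay nearest were found by Euclidean distance. Nearest to Pdgfra was Ptprz1 (0.0289). Nearest to Lhfpl3 were Ncald (0.0391), of the other precursor genes, and Cntn1 (0.0637). Matn4 and Cacng4 lay 0.0588 apart, and nearest to Fabp7 were Mki67 (0.05) and Rgs5 (0.055). Nearest to Cspg5 were Abcc9 (0.0412) of the mural list and Matn2 (0.0417), and nearest to C1ql1 were Lhx2 (0.0519) of the tanycyte list and Cspg4 (0.116). With 4 libraries, such distances describe these libraries and nothing more.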
